A study of Mus musculus with 18 samples.

Results

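The 33 genes described here serve the unfolded protein response of the endoplasmic reticulum and the integrated stress response. They were taken from a fixed list of symbols matched to the Ensembl identifiers of the count tables, where they are 33 of 47729 identifiers, and 33 of 33 passed the filter on low counts that left 15572 genes for testing. By role they comprise 15 endoplasmic reticulum chaperones and folding enzymes, 7 genes of endoplasmic reticulum associated degradation (ERAD), 5 sensors and the transcription factor Xbp1 counted together, and 6 genes of the ATF4 branch. RNA with a poly(A) tail was sequenced in bulk from sorted epithelial cells of the mouse ileum, in 6 libraries from lactating females, 6 from virgin males and 6 from virgin females. The lactating females were at day 7 of lactation, the virgin animals were matched to them in age, and all 3 groups came from colonies fed the RM3 diet for breeding and the RM1 diet for maintenance and the experiment. Neither strain, age in weeks nor sorting gate was given in the sources used here. The labels do not state that each library is a separate animal, so p-values measure the spread between these libraries.

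Proteins that enter the endoplasmic reticulum are folded by chaperones such as BiP, the product of Hspa5, and by disulfide isomerases of the PDI family. When unfolded proteins build up, the sensor IRE1 splices the Xbp1 messenger, ATF6 is cut to release a transcription factor, and PERK phosphorylates the initiation factor eIF2 alpha. XBP1 and ATF6 induce chaperones and ERAD genes, whereas eIF2 alpha phosphorylation slows translation in general and lets ATF4 be made, which induces genes for amino acid supply, CHOP (Ddit3) and feedback inhibitors. Amino acid shortage and other stresses reach ATF4 through other eIF2 alpha kinases, which is the integrated stress response. In the intestine these pathways are best known for the secretory goblet and Paneth cells, and the epithelium carries a second IRE1, encoded by Ern2.

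The promoters of the chaperone genes and of the ATF4 branch held different motifs. RefSeq windows of GRCm38.p6, from 250 bases before to 50 bases after an annotated start, were found for 28 of the 33 genes, and were searched on both strands. Atf6, Derl1, Ern2, Hyou1 and Manf had no window and were not searched. The endoplasmic reticulum stress element ERSE (CCAAT, any 9 bases, then CCACG) was present in 9 of the 28: Hspa5, Hsp90b1, Calr, Canx, Pdia6, Dnajc3, Creld2, Syvn1 and Derl3. Over all windows of the same length ERSE occurred in 39 of 32851, or 0.119%. Some genes have several windows, and counted by gene ERSE occurred in 37 of 27025, or 0.137%. The related ERSE-II (ATTGG, any 1 base, then CCACG) was present in Herpud1 and Dnajb11, against 0.0365% of all windows and 0.0444% of genes. The ATF4 element TGATGNAA was present in Asns, Chac1, Trib3 and Herpud1, or 4 of 28, and in 3.97% of all windows and 4.51% of genes. Of the 6 ATF4 branch genes 3 held the ATF4 element and 0 held ERSE, whereas of the 13 chaperone genes with a window 7 held ERSE and 0 the ATF4 element. The XBP1 element TGACGTGG was in 0 of the 28 genes, and in 0.676% of all windows and 0.714% of genes. A match describes letters and is not a binding site, and these motifs do not overlap each other in the windows shown.

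To show where the motifs lie, the 250 bases before the RefSeq start follow for Hspa5 (BiP, chr2:34771840-34772089, plus strand), Syvn1 (the ubiquitin ligase HRD1, chr19:6046326-6046575, plus strand) and Asns (asparagine synthetase, chr6:7693210-7693459, minus strand, read along the gene), 5′ to 3′ in GRCm38.p6. Capitals mark ERSE in Hspa5 and Syvn1, which ends 46 and 25 bases before the start, and the ATF4 element in Asns, which ends 15 bases before it.
Hspa5: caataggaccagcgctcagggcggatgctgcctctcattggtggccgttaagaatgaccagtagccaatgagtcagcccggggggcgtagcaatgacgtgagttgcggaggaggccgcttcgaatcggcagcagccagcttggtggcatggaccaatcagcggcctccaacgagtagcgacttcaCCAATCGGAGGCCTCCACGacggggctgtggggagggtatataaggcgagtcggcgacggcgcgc
Syvn1: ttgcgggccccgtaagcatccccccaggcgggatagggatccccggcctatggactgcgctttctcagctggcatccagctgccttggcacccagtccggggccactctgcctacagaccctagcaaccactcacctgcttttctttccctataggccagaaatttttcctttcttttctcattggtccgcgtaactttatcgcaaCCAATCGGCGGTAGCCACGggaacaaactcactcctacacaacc
Asns: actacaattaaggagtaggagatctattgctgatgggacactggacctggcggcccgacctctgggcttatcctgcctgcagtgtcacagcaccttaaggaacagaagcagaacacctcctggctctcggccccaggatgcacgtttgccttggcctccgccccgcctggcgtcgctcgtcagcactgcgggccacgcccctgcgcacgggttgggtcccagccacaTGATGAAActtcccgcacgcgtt

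Shorter stretches around the motif are given for the chaperones and ATF4 branch genes that the results return to, along the gene's strand. ERSE in the opposite orientation reads CGTGG, 9 bases, then ATTGG, as in Calr, Creld2 and the second site of Hsp90b1, and the ATF4 element of Chac1, Trib3 and Herpud1 is likewise in the opposite orientation. The stretches lie at chr10:86705630-86705664 and chr10:86705525-86705559 (Hsp90b1, minus strand), chr8:84847067-84847101 (Calr, minus), chr11:50325792-50325826 (Canx, minus), chr12:17266483-17266517 (Pdia6, plus), chr14:118937819-118937853 (Dnajc3, plus), chr15:88819512-88819546 (Creld2, plus), chr2:119351039-119351066 (Chac1, plus), chr2:152344029-152344056 (Trib3, minus), and for Herpud1 (plus) chr8:94386369-94386395 with ERSE-II and chr8:94386307-94386334 with the ATF4 element. Of these motifs only that of Trib3 lies past the start, beginning at base 15 of the transcript.
Hsp90b1, first site: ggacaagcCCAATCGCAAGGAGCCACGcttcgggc
Hsp90b1, second site: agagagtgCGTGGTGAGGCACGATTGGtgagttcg
Calr: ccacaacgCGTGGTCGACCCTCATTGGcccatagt
Canx: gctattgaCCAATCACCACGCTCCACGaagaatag
Pdia6: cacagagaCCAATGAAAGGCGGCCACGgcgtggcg
Dnajc3: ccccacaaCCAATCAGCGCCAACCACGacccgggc
Creld2: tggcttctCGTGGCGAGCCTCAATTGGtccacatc
Chac1: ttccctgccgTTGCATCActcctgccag
Trib3: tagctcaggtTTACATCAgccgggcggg
Herpud1, ERSE-II: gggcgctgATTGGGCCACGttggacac
Herpud1, ATF4 element: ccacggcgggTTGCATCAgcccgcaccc

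The libraries held 34577104 to 49039300 counts. Levels below are CPM, read counts scaled to library size with TMM factors, and levels are compared between genes only as CPM per kilobase of exon. Virgin male 6 and virgin female 2 stood apart with 30000 and 31000 CPM of Gm42418, a transcript that overlaps ribosomal RNA, against 1230 to 4470 CPM in the other libraries. Markers of cells outside the epithelium were low: 9 of 9 stromal, endothelial and muscle markers were below 1 CPM in every library, as were 6 of 8 T cell and 7 of 10 plasma and B cell markers. The plasma cell marker Jchain reached at most 2.28 CPM, and Tnfrsf17 was at 0 in all libraries. The summed T cell markers were at 0.377 to 5.74 CPM in lactating females, 0.424 to 1.64 CPM in virgin males and 0.559 to 3.67 CPM in virgin females. The summed plasma and B cell markers were at 0.932 to 10.7, 0.973 to 2.4 and 1.01 to 5.87 CPM in those groups.

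Chaperones were the most abundant of the 4 classes. Their median level over the 18 libraries was 40.7 CPM per kilobase, with a range over the 15 genes of 15.3 (Dnajb9) to 548 (P4hb). ERAD genes had a median of 15.7 and a range of 0.121 (Derl3) to 27.9 (Herpud1) CPM per kilobase. Sensors and Xbp1 had a median of 5.88, of which Xbp1 stood at 43.2 and the kinases Ern1 and Eif2ak3 at 5.78 and 5.88 CPM per kilobase. The ATF4 branch had a median of 9.15 CPM per kilobase, with Atf4 at 94.2, Ddit3 at 13.3, Ppp1r15a at 12.2, Asns at 6.10, Trib3 at 2.87 and Chac1 at 0.882. P4hb, a disulfide isomerase that is also a subunit of prolyl hydroxylase, was the highest of the 33, followed by Calr (calreticulin) at 305 and Pdia3, the isomerase that works with calreticulin, at 184 CPM per kilobase. Derl3, a derlin of ERAD, had 0 to 34 counts per library, so that its fold changes rest on few reads.

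**Figure D1:**
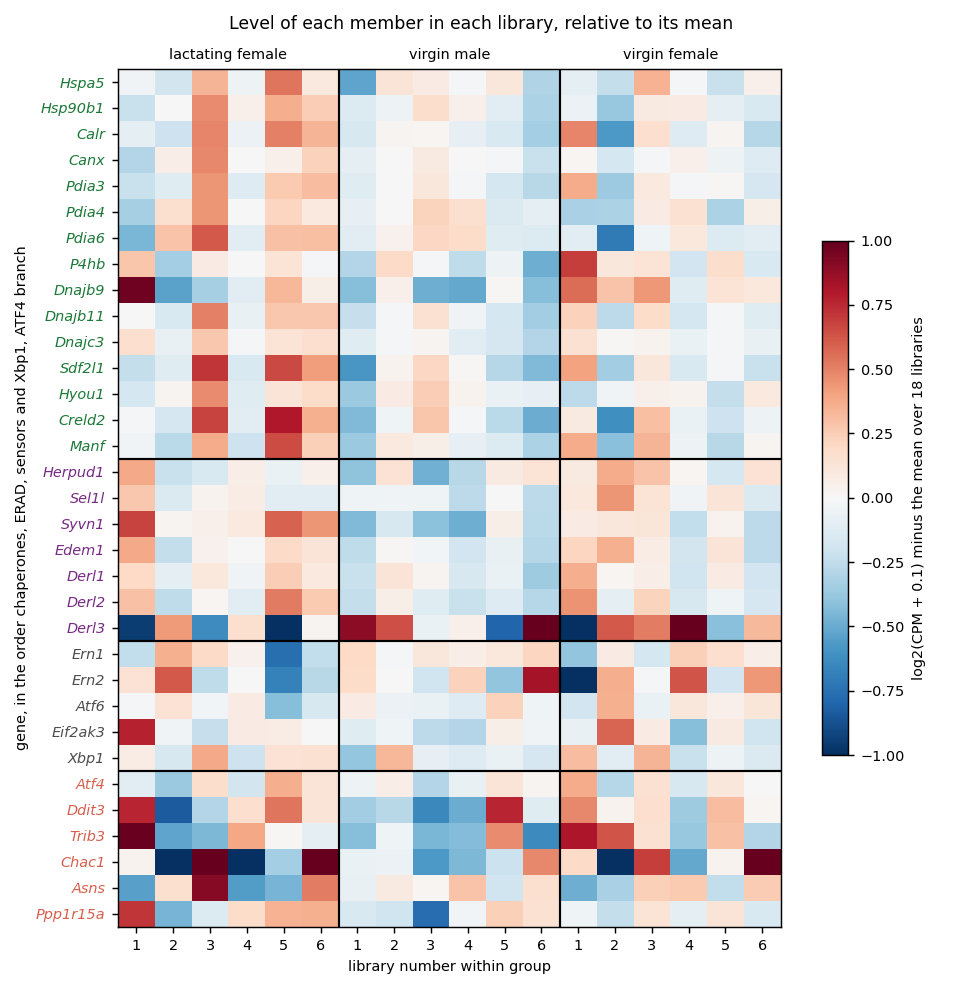
The level of each of the 33 genes (rows, grouped by role) in each of the 18 libraries (columns, grouped as lactating female, virgin male and virgin female), as log2(CPM + 0.1) minus the gene's mean over all libraries. Colours are cut off at 1 unit either way. Lactating library 3 is red for most chaperones, Syvn1 is red in lactating libraries 1, 5 and 6, and in lactating libraries 1 and 3 Asns and Trib3 have opposite colours.

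In lactating against virgin females 0 of the 33 genes passed the test at an adjusted p under 0.05 (edgeR quasi-likelihood test, Benjamini-Hochberg adjustment over all genes), beside a background of 0.0578% (9 of 15572 genes). At an unadjusted p under 0.05 there were 2 of 33 (6.06%), Syvn1 and Pdia6, beside 6.44% of all genes, so the share was near the background. Both were higher in lactating females, as were 3.4% of all genes. DESeq2 also called 0 of the 33. Hspa5 stood at 574, 667 and 946 CPM (lowest, median and highest) in lactating females and at 554, 629 and 829 CPM in virgin females. The groups overlapped, with the highest library lactating and the lowest virgin female, and the log2 fold change was 0.15 (95% interval -0.14 to 0.45, adjusted p = 0.933). Pdia6, a disulfide isomerase that binds BiP, stood at 109, 182 and 228 CPM in lactating females and at 91.6, 138 and 161 CPM in virgin females, with a log2 fold change of 0.34 (SE 0.15, adjusted p = 0.737).

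In the ATF4 branch 0 of 6 genes passed in that comparison. The fold change farthest from 0 was that of Chac1 at 0.50 (95% interval -0.59 to 1.58), and Ppp1r15a was at 0.25 (-0.09 to 0.59). Atf4, the transcription factor, had a log2 fold change of -0.03 (95% interval -0.29 to 0.23). Ddit3, which encodes the pro-apoptotic factor CHOP, was at 0.03 (-0.46 to 0.53), and Asns at 0.14 (-0.31 to 0.59). Trib3, a pseudokinase that inhibits ATF4, was at -0.12 (-0.65 to 0.42). Of the 33 genes, 23 lay above 0 (69.7%, beside 49.4% of all genes). The median log2 fold change was 0.157 for the 15 chaperones and 0.086 for the 6 ATF4 branch genes, beside -0.003 for all genes. Without lactating library 3 the chaperone median was 0.087 and the ATF4 branch median -0.042. Of the 5 villus tip markers 4 lay above 0 in this comparison (median 1.25), of 8 enteroendocrine markers 8 (median 0.64), of 18 cell cycle genes 15 (median 0.11), of 8 absorptive enterocyte markers 5 (median 0.02), and of 6 stem cell markers 0 (median -0.22). Of 8 Paneth cell markers 1 lay above 0 (median -0.47), and of 8 goblet cell markers 4 (median 0.01). None of these markers passed the test, and their part in the medians was not tested.

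Of virgin males against virgin females, 0 of 33 genes passed the test, beside 0.0835% of all genes (13 of 15572), and DESeq2 called 0 as well. At an unadjusted p under 0.05 there were 2 of 33 (6.06%, beside 8.32% of all genes), both lower in males, as were 6.02% of all genes. Dnajb9, a co-chaperone that holds BiP on IRE1, stood at 26.2, 27.8 and 38.7 CPM in virgin males and at 34.5, 43.4 and 55.3 CPM in virgin females. All 6 male libraries were below the female mean, although the groups overlapped, and the log2 fold change was -0.53 (SE 0.20, adjusted p = 0.565). Sel1l, the scaffold of the ERAD ligase complex, had -0.22 (SE 0.10, adjusted p = 0.565). Of the 33 genes 9 lay above 0 (27.3%, beside 48.0%), with medians of -0.081 for the chaperones, -0.159 for the ATF4 branch and -0.013 for all genes. The chaperone median was -0.127 without virgin male 3 and -0.027 without virgin female 1, and the ATF4 branch median was -0.245 without virgin male 5 and -0.092 without virgin male 3. With the cell cycle score as a covariate the ATF4 branch median was -0.013. In this comparison 0 of 8 absorptive enterocyte markers lay above 0 (median -0.65) and 18 of 18 cell cycle genes did (median 0.36), with 0 called in either list, and their part in the medians was not tested.

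Lactating females against virgin males differed in both sex and reproductive state. Here 1 of 33 genes passed the test (3.03%), beside 0.764% of all genes (119 of 15572), and 0.629% of all genes were called higher. That gene was Syvn1 (ENSMUSG00000024807, chr19:6046576-6053712 of GRCm38), the ubiquitin ligase at the centre of ERAD. It stood at 76.0, 90.1 and 119 CPM in lactating females, and at 53.0, 59.0 and 77.6 CPM in virgin males. Virgin females were at 62.0, 77.8 and 81.2 CPM. All 6 lactating libraries were above the male mean, and the ranges overlapped only in that virgin male 5, at 77.6 CPM, exceeded lactating libraries 2 and 3 at 76.0 and 77.4 CPM. The log2 fold change was 0.61 (SE 0.13, adjusted p = 0.0353), and against virgin females it was 0.35 (SE 0.13, adjusted p = 0.614). Both comparisons use the same lactating libraries, and virgin males against virgin females gave -0.26 (SE 0.13, adjusted p = 0.565).

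The Syvn1 call was kept in 10 of the 18 fits that left out 1 library, namely without lactating library 2, 3 or 4, virgin male 5 or any virgin female (adjusted p = 0.0163 to 0.049). It was lost without lactating library 1, 5 or 6 (0.53 to 0.59, adjusted p = 0.0843 to 0.0947), without virgin male 1, 2, 3, 4 or 6 (0.57 to 0.63, adjusted p = 0.061 to 0.104), without virgin male 6 and virgin female 2 together (0.61, adjusted p = 0.0897) and with the compared groups fitted alone (0.61, adjusted p = 0.0609). DESeq2 gave an adjusted p of 0.00201. Syvn1 shares 91 exonic bases with Mrpl49 on the opposite strand, whose log2 fold change was -0.10 (SE 0.13) in the same comparison. Mrpl49 averaged 27.0 CPM in lactating females, against 28.9 CPM in virgin males. At an unadjusted p under 0.05 there were 6 of 33 genes (18.2%, beside 15.9% of all genes), all higher in lactating females, as were 10.5% of all genes: Syvn1, Creld2 (0.45), Dnajb9 (0.44), Sdf2l1 (0.42), Derl2 (0.30) and Dnajc3 (0.23). Their adjusted p-values apart from Syvn1 were 0.212 to 0.307. Dnajb9 was at 0.20 without lactating library 1, and with the cell cycle score as a covariate Dnajb9 was at 0.13 and Derl2 at 0.16. Of these, Sdf2l1 is part of a chaperone complex with BiP, Creld2 is a secreted stress-inducible folding factor, Dnajc3 is a BiP co-chaperone that also inhibits PERK, and Derl2 is a derlin.

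In the same comparison 29 of 33 genes lay above 0 (87.9%, beside 48.9% of all genes), and 15 of 15 chaperones did so, with log2 fold changes of 0.10 (Pdia4) to 0.45 (Creld2). The medians were 0.226 for the chaperones and 0.290 for the ATF4 branch, beside -0.008 for all genes. With the cell cycle score as a covariate the ATF4 branch median was 0.063. It was 0.143 without lactating library 1 and 0.459 without virgin male 5. The 4 genes below 0 were the sensors Ern1, Ern2 and Atf6 and the scarcely detected Derl3, and of these Ern2 and Atf6 lay within 1 SE of 0 and reached 0 or above in 1 alternative each. Asns and Atf4, above 0, also lay within 1 SE and changed sign in 3 of 27 alternatives each. In the same comparison 8 of 8 absorptive enterocyte markers (median 0.67) and 8 of 8 enteroendocrine markers (median 0.57, 1 called, Gcg for proglucagon) lay above 0, as did 4 of 5 villus tip markers (median 1.14). Of 6 stem cell markers (median -0.54) and 18 cell cycle genes (median -0.25), 0 lay above 0. Of 8 Paneth cell markers 2 lay above 0 (median -0.45), and of 8 goblet cell markers 5 (median 0.03). Their part in the shift of the 33 genes was not tested. In none of the 3 comparisons did any of the 33 genes have groups that did not overlap, beside 1.35% of all genes here, 0.43% in virgin males against virgin females and 0.289% in lactating against virgin females.

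**Figure D2:**
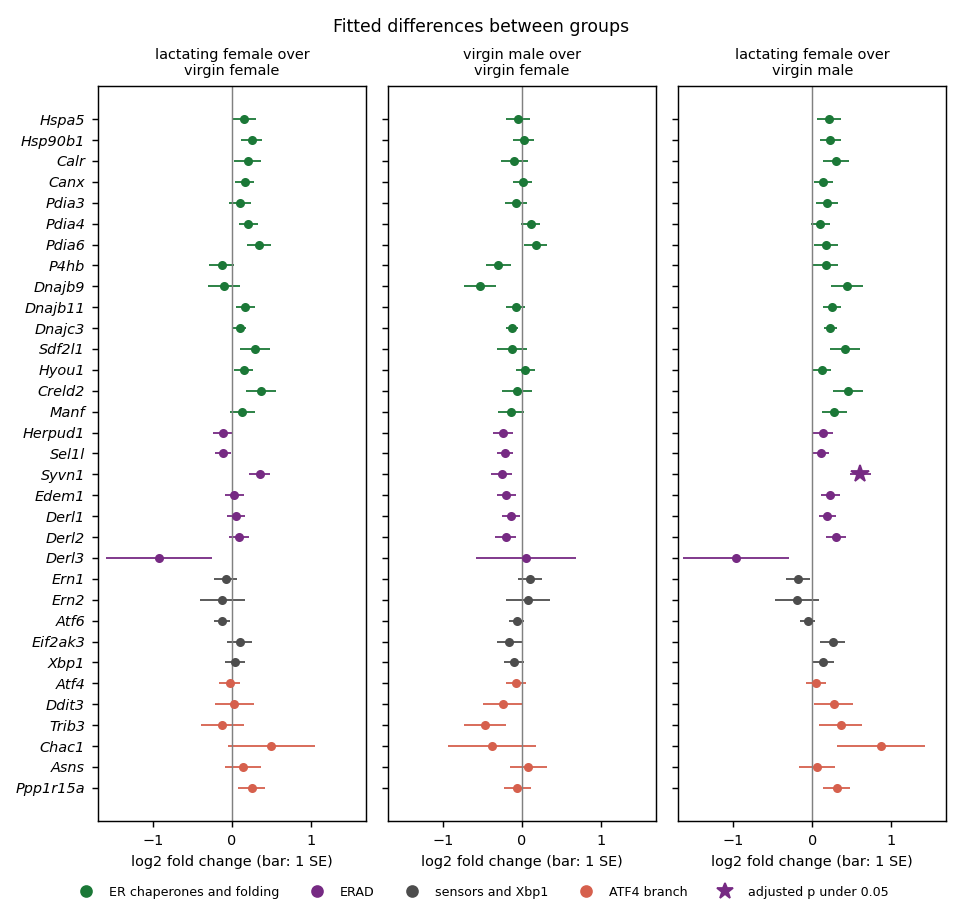
Fitted log2 fold changes of the 33 genes (points, bars 1 SE) in the 3 comparisons, coloured by role. The star marks Syvn1 at 0.61 in lactating females over virgin males, the only one of the 33 past an adjusted p of 0.05. The chaperones lie from 0.10 to 0.45 in that panel, and Derl3 and Chac1 have the widest bars.

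Chaperones and the ATF4 branch were also set against each other within each library, as the mean log2 CPM of the 15 chaperones minus that of the 6 ATF4 branch genes. It is not scaled to exon length, so it serves to compare libraries and not the abundance of the classes. Each gene has equal weight, among them Chac1 with 16 to 267 counts per library. This difference was 3.28 to 4.13 in lactating females (median 3.69), 3.31 to 4.18 in virgin males (median 3.64) and 3.40 to 3.81 in virgin females (median 3.55). The 3 groups overlapped, and the SD was 0.31 in lactating females, 0.33 in virgin males and 0.14 in virgin females.

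**Figure D3:**
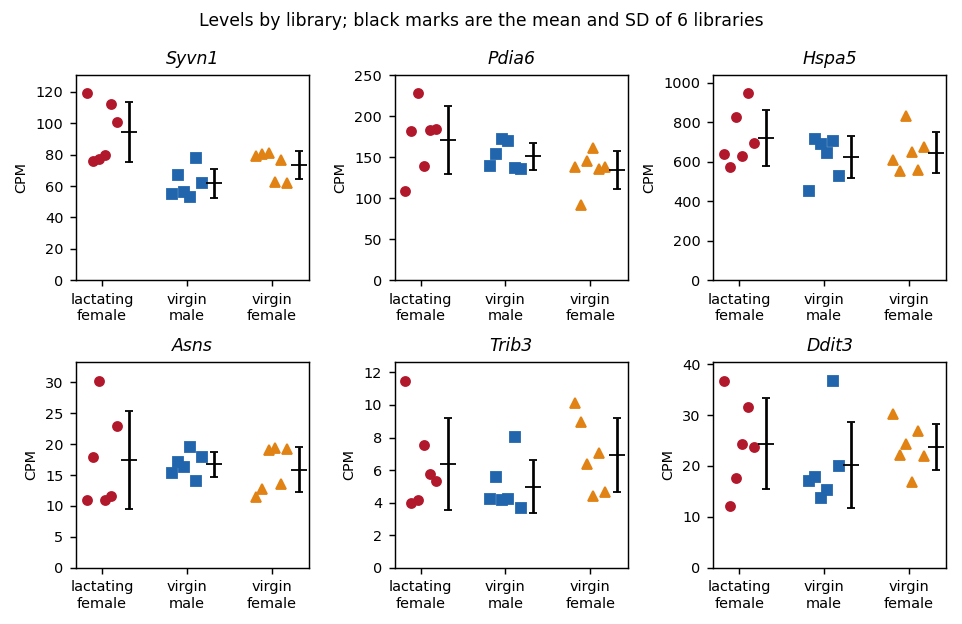
CPM of 6 genes in each library, with the mean and SD of 6 libraries in black, for lactating females, virgin males and virgin females. Syvn1 averages 94.1 CPM in lactating females, 61.7 CPM in virgin males and 73.7 CPM in virgin females, and for the other genes the groups overlap widely.

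Within groups, several of the 33 genes varied with the level of cell cycle genes in the library. A cell cycle score, the mean log2 CPM of 18 cell cycle genes, ran from 3.80 to 5.46 in lactating females, 4.89 to 5.34 in virgin males and 3.88 to 5.40 in virgin females. A model with a mean per group and a slope on this score, added after the data were seen, called 16 of the 33 genes (48.5%), beside 43.8% of all genes, so the total share was near the background. Of these, 5 were higher with the score (15.2%, beside 21.9%) and 11 were lower (33.3%, beside 21.9%). In bulk RNA, fewer cells of a type and less RNA per cell cannot be told apart.

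Other markers moved along with this score. Higher with it were 5 of 6 stem cell and 7 of 8 Paneth cell markers, and lower were 7 of 8 absorptive enterocyte and 4 of 5 villus tip markers. Goblet cell markers were split, with 3 of 8 higher and 2 lower. Of 14 early response and heat shock genes 1 was higher and 4 lower, and of the plasma and B cell markers 2 of 3 tested were lower. Summed early response and heat shock genes were at 2670 to 4070 CPM in lactating females, 2880 to 4800 CPM in virgin males and 3410 to 4510 CPM in virgin females. Summed absorptive markers were at 20800 to 74000 CPM in lactating females, 14100 to 31400 CPM in virgin males and 20500 to 66000 CPM in virgin females. Summed villus tip markers were at 1860 to 8360, 1360 to 4260 and 1860 to 4800 CPM in those groups, summed stem cell markers at 242 to 764, 537 to 799 and 228 to 848 CPM, and summed Paneth markers at 4090 to 11300, 3890 to 17000 and 1240 to 16600 CPM. The part of these cell types and genes in the slopes below was not tested.

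Genes of the ATF4 branch had slopes of both signs. Trib3 fell by 0.90 log2 CPM per unit of the score (SE 0.13, adjusted p = 2.58e-05) and Ddit3 by 0.75 (SE 0.16, adjusted p = 0.0011), whereas Asns had a slope of 0.65 (SE 0.15, adjusted p = 0.00237). Trib3 was highest in lactating library 1 and, among virgin females, in virgin female 1 at 10.1 CPM, the libraries with the lowest scores, and lowest among lactating females, at 3.95 CPM, in lactating library 2, which had the highest score. Asns, which makes asparagine from aspartate, stood at 11.0 CPM in lactating library 1 and 11.4 CPM in virgin female 1 and reached 30.3 CPM in lactating library 3. Ppp1r15a, the GADD34 subunit that reverses eIF2 alpha phosphorylation, fell by 0.37 (SE 0.14, adjusted p = 0.0348), a call lost without lactating library 1, 2 or 3 (slopes of -0.34 to -0.27, adjusted p = 0.0664 to 0.187). Atf4 itself was at -0.18 (SE 0.11, adjusted p = 0.203). Chac1, which degrades glutathione, was at 0.65 (SE 0.52, adjusted p = 0.333), but at -0.04 without lactating library 3, where it stood at 6.12 CPM.

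Most ERAD genes were lower where the score was high. Of the 7, 5 were called lower with the score, beside 21.9% of all genes. These were Syvn1 (-0.39, SE 0.08, adjusted p = 0.000517), Edem1 (-0.35), which acts on misfolded glycoproteins, Derl2 (-0.35), Derl1 (-0.26) and Sel1l (-0.21). With the replicate block the Derl1, Derl2 and Sel1l calls were lost (edgeR adjusted p = 0.0963, 0.092 and 0.13). The Sel1l call was lost without lactating library 1 or 2 or virgin female 4 or 6 (-0.21 to -0.18, adjusted p = 0.0628 to 0.134). Herpud1, which organises the ligase complex, was at -0.23 (SE 0.11, adjusted p = 0.0979). Derl3 had a slope of 1.57 (SE 0.58, adjusted p = 0.0349) on 0 to 34 counts, a call lost without lactating library 1 or 2 or virgin female 1, 4 or 5 (1.19 to 1.64, adjusted p = 0.0556 to 0.119). With the score as a covariate, Syvn1 in lactating females over virgin males was at 0.46 (adjusted p = 0.012).

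The chaperones lay on both sides of 0 on the same scale, with a median slope of -0.01. Pdia4 (0.34, SE 0.08, adjusted p = 0.00218) and Pdia6 (0.34, SE 0.12, adjusted p = 0.0238), both disulfide isomerases, were higher with the score. Dnajb9 (-0.67, SE 0.10, adjusted p = 3.36e-05) and P4hb (-0.41, SE 0.10, adjusted p = 0.00304) were lower. The Pdia6 call was lost without lactating library 1 or 3 or virgin female 4 (0.23 to 0.34, adjusted p = 0.0521 to 0.168). Hspa5 was at 0.01 (SE 0.14), and the other 10 were between -0.14 and 0.21. Among the sensors, Eif2ak3, which encodes PERK, was lower (-0.47, SE 0.10, adjusted p = 0.00113) and Ern1, which encodes IRE1 alpha, higher (0.35, SE 0.10, adjusted p = 0.0107). Ern2, the IRE1 of mucus-producing epithelia, was at 0.53 (SE 0.22, adjusted p = 0.0602) and passed without lactating library 1 or 3, virgin female 2 or virgin male 6 (0.53 to 0.95, adjusted p = 0.00439 to 0.0403).

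**Figure D4:**
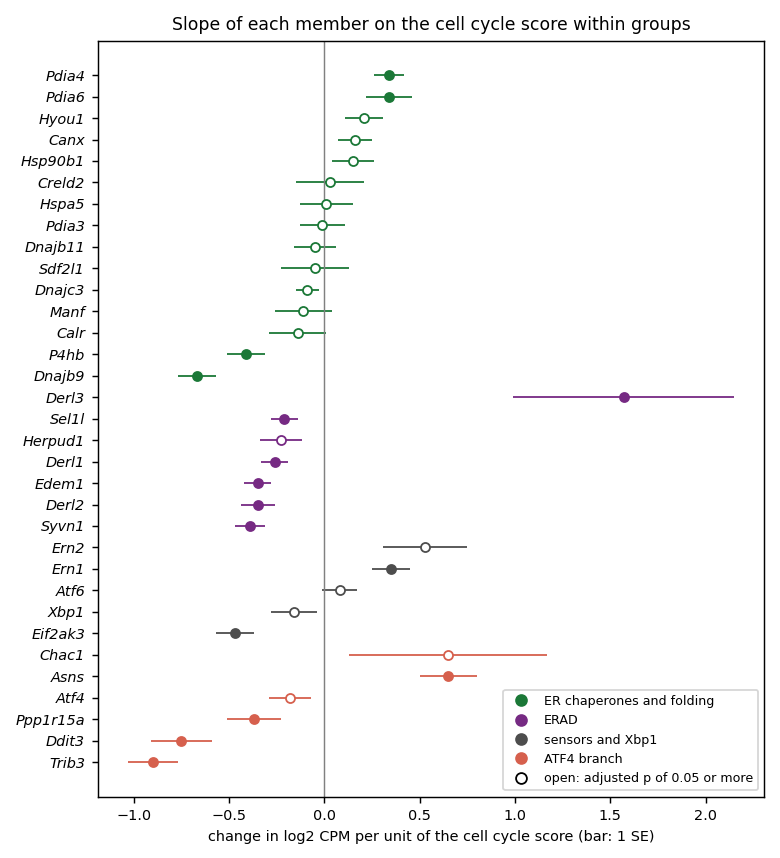
Slope of each of the 33 genes on the cell cycle score within groups, in log2 CPM per unit of the score (points, bars 1 SE), ordered within roles. Filled points passed an adjusted p of 0.05. In the ATF4 branch Asns lies at 0.65 and Trib3 at -0.90, 5 of 7 ERAD genes lie below 0 and are filled, and Hspa5 lies at 0.01.

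**Figure D5:**
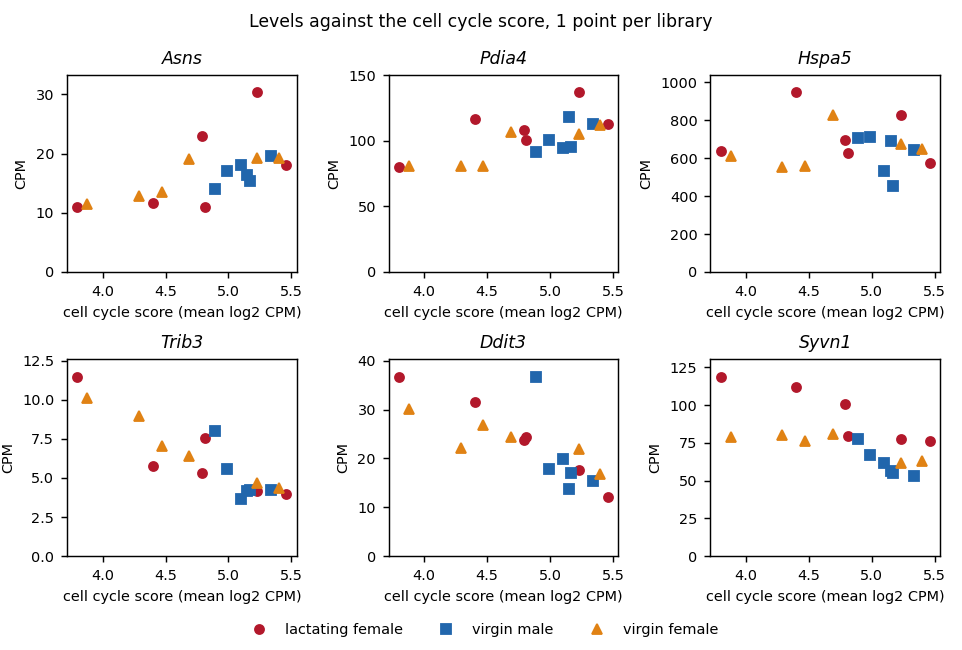
CPM of 6 genes against the cell cycle score (mean log2 CPM of 18 genes), with 1 point per library. Asns and Pdia4 are higher at high scores, Trib3, Ddit3 and Syvn1 are higher at low scores, and Hspa5 has a fitted slope of 0.01. For Syvn1 lactating libraries lie at 76.0 to 119 CPM and virgin male libraries at 53.0 to 77.6 CPM.

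Correlations were taken over the same 18 libraries after group means were removed, among 129 relations of the genes with 4 measures, of which 23 had an adjusted permutation p under 0.05 for Pearson's r. The p-values below are two-sided, from 100000 permutations of libraries within groups, and adjusted over the 129 by the Benjamini-Hochberg method. With the cell cycle score, Trib3 had r = -0.875 (adjusted permutation p = 0.00086) and Spearman's rho = -0.856 (adjusted permutation p = 0.00284), and r = -0.791 without the 2 libraries with the most extreme scores. Taken separately, r was -0.898 in lactating females, -0.769 in virgin males and -0.989 in virgin females. Asns had r = 0.719 (adjusted permutation p = 0.044) and rho = 0.682 (adjusted permutation p = 0.0627), with 0.628 without those libraries and 0.658, 0.706 and 0.912 within the groups. Asns and Trib3, both genes with the ATF4 element in the windows searched, were inversely related to each other. They had r = -0.739 (adjusted permutation p = 0.0204) and rho = -0.775 (adjusted permutation p = 0.0125). That relation was -0.739 in lactating females, -0.662 in virgin males and -0.915 in virgin females, and -0.739 without the 2 libraries most extreme for Asns.

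Several chaperones varied with Hspa5. All 14 other chaperones had a positive r with Hspa5, with a median of 0.561, beside 49.3% of all other tested genes with a positive r, and 6 passed the adjusted test. An r of at least 0.66, the lowest of these 6, was reached by 6 of 14 chaperones (42.9%) and by 1.66% of all genes, as a description of these libraries. Creld2 had r = 0.844 (adjusted permutation p = 0.00215) and rho = 0.829 (adjusted permutation p = 0.00295), with r = 0.830 without the 2 libraries most extreme for Hspa5. Manf, a secreted factor that binds BiP, had r = 0.838 (adjusted permutation p = 0.00129) and rho = 0.825 (adjusted permutation p = 0.00284), with 0.810 without those libraries. Creld2 was at 0.974, 0.714 and 0.813 within lactating females, virgin males and virgin females, and Manf at 0.972, 0.893 and 0.712. The other 4 were Sdf2l1 (0.716), Hyou1 (0.687), Hsp90b1 (0.686) and Dnajb11 (0.660), and without the same 2 libraries they were at 0.624, 0.665, 0.708 and 0.689. Their rho values were 0.725, 0.723, 0.754 and 0.709, and their adjusted permutation p-values for r ran from 0.0241 to 0.0437. Xbp1, the factor known to induce many of these genes, had r = 0.659 with Hspa5 (adjusted permutation p = 0.035), rho = 0.703 and r = 0.641 without those libraries. Of the ATF4 branch genes 0 of 6 passed, with r of -0.0327 (Trib3) to 0.495 (Atf4), nor did any ERAD gene. Atf4 was at 0.956, 0.0156 and 0.265 within lactating females, virgin males and virgin females. Of the chaperones that did not pass, Pdia6 (0.479), Canx (0.445), Dnajc3 (0.431), P4hb (0.316) and Dnajb9 (0.224) had a lower r than Atf4. Calr (0.572), Pdia4 (0.55) and Pdia3 (0.524) had a higher one. The genes share libraries and depth. Of Hspa5, Xbp1 and the 6 chaperones that passed, Hspa5, Creld2 and Hsp90b1 held ERSE and Dnajb11 held ERSE-II. Sdf2l1 and Xbp1 held neither, and Manf and Hyou1 were not searched. Calr, Canx, Pdia6 and Dnajc3, which did not pass for r, also held ERSE.

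Asns was related to 2 chaperones, Pdia4 (r = 0.729, adjusted permutation p = 0.0241; rho = 0.723) and Hyou1 (r = 0.717, adjusted permutation p = 0.019; rho = 0.695), the endoplasmic reticulum chaperone that exchanges nucleotide on BiP. Without the 2 libraries most extreme for Asns these were 0.676 and 0.554. With the cell cycle score Asns, Pdia4 and Hyou1 had r = 0.719, 0.771 and 0.484, and its part in these relations was not tested. The share of all genes with such an r to Asns is not given here, so the relations cannot be called particular to chaperones. With the goblet cell score, Canx (calnexin) had r = -0.801 (adjusted permutation p = 0.0193), but rho was -0.538 (adjusted permutation p = 0.124), and Pdia3 had r = -0.597 (adjusted permutation p = 0.0438) with rho = -0.426 (adjusted permutation p = 0.21). Without lactating library 3 and virgin male 6, the 2 most extreme for the goblet score, r was -0.665 and -0.453. For the goblet score, too, the share of all genes with such an r is not given here.

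Related genes outside the 33 also varied along the cell cycle score, on which 21.9% of all genes were called higher and 21.9% lower. Of 28 tested genes in a list of other ATF4 and integrated stress response genes, 15 were higher and 4 lower with the score, with a median slope of 0.49. The highest-ranked by p were Pck2 (0.80, SE 0.08, adjusted p = 3.56e-07), Shmt2 (0.83, SE 0.09) and Slc7a1 (1.0, SE 0.11), for mitochondrial gluconeogenesis, serine and folate metabolism and cationic amino acid import. Psat1 (1.16, SE 0.14) and Phgdh (0.94, SE 0.17) of serine synthesis and Mthfd2 (0.98, SE 0.11) of mitochondrial folate metabolism, chosen after their values were seen, lay on the same side as Asns. The 4 lower genes, likewise chosen after their values were seen, were Slc3a2 (-0.51), Cebpg (-0.24), Ppp1r15b (-0.24) and Eif2ak1 (-0.18). Of these the Eif2ak1 call (adjusted p = 0.0487) was lost in most fits that left out 1 library, and the Ppp1r15b call without lactating library 2 or virgin female 4 (-0.19 and -0.22). With the replicate block the Slc3a2, Ppp1r15b and Eif2ak1 calls were lost (edgeR adjusted p = 0.0629, 0.0733 and 0.164). Of 20 cytosolic aminoacyl-tRNA synthetases, which charge transfer RNA, 13 were higher and 0 lower, led by Vars (1.07, SE 0.05, adjusted p = 3.19e-10), Eprs (0.53) and Farsb (0.61).

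Of 15 other ERAD genes 0 were higher and 5 lower, among them Os9 (-0.34, SE 0.06, adjusted p = 0.000419) and Ube2j2 (-0.39). Of 26 other folding genes 9 were higher and 2 lower, led by Dnajc10 (0.44), Nucb2 (1.03) and Uggt1 (0.35). With the replicate block the Ube2j2 and Dnajc10 calls were lost (edgeR adjusted p = 0.0716 and 0.0546). Of 10 other sensors and transducers 2 were higher and 5 lower, led by Creb3l3 (-1.26, SE 0.19, adjusted p = 4.84e-05), a membrane-bound factor of fat metabolism, Tmbim6 (-0.57) and Creb3l2 (-0.85). Between groups these 5 lists, with 10 to 28 tested genes each, held 1 called gene, in lactating females against virgin males. In that comparison 0.764% of all genes (119 of 15572) were called. Slc6a9, a glycine transporter, was at 7.28 ± 1.48 CPM in lactating females, against 13.3 ± 1.89 CPM in virgin males (SD, n = 6 each), a log2 fold change of -0.87 (SE 0.19, adjusted p = 0.0353). All 6 lactating libraries were below the male mean, and the call was lost without lactating library 1, 4, 5 or 6 or virgin male 1, 2, 3, 4 or 6, and without virgin male 6 and virgin female 2 together (-0.81, adjusted p = 0.104). Over all fits that left out 1 library the value ran from -0.93 to -0.80, with an adjusted p of 0.00907 to 0.0953.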

How the data were processed

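Poly(A) RNA from sorted ileal epithelial cells was sequenced from directional libraries. The deposited files hold raw read counts per Ensembl gene for each of 18 libraries. Per the submitters' processing notes the tools named were FastQC 0.11.5, HISAT2 2.0.4, featureCounts of Subread 2.0.0 and DESeq2 1.24.0, with build GRCm38. How reads with several matches and the strand were handled, and which annotation release was used, is not given in the sources used here, so reads in exons shared by overlapping genes could be lost or counted for either gene. Totals per library were 34577104 to 49039300 counts, and no 2 libraries agreed within sampling noise (chi-square per degree of freedom at least 32.7).

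Genes were filtered with filterByExpr and scaled by TMM in edgeR 4.0.16 (R 4.3.3). The quasi-likelihood fit took in all 18 libraries and had 1 coefficient for each group, with Benjamini-Hochberg adjustment over 15572 genes and a threshold of 0.05. The slope on the cell cycle score came from the same model with the score added; this model was chosen after the data were seen, and its alternatives likewise. Scores are means of log2 CPM with a prior count of 2. Standard errors were taken from the fold change and its F statistic. DESeq2 1.42.0, other scaling and filters, the compared groups alone, the replicate number as a block, robust empirical Bayes, the score as a covariate and each library left out were tried as alternatives. The scripts were tested on simulated data. Correlations and motif searches used Python 3.11.15 with numpy 2.4.6 and scipy 1.17.1. Gene positions and exon lengths came from the GENCODE annotation of GRCm38, which held 47310 of the 47729 identifiers, and promoter windows from RefSeq.

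Genes that could be named were the 33 and, of each other list, up to 3 genes by smallest p per comparison, the first gene of each marker list, markers at or near 0 and genes overlapping one of the 33. Not every gene that this rule allows is reported here. The 33 genes, the other lists and the comparisons were chosen with earlier results of these data known.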

Additional observations from a re-analysis of the deposited data

Results flagged for a closer look

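In 4 of 99 sets of 6 libraries (33 genes in 3 groups), 1 library lay far from the other 5, with a gap to its nearest neighbour, as a share of the whole range, above Dixon's 95% critical value. Chance gives this in about 1 in 20 sets. Eif2ak3, which encodes PERK, was at 59.1 CPM in lactating library 1, against 29.5 to 36.8 CPM in the other lactating libraries. Among virgin males Ddit3, which encodes CHOP, reached 36.8 CPM in library 5, and the other libraries held 13.8 to 19.9 CPM. P4hb was at 2490 CPM in virgin female 1, against 1350 to 1740 CPM in the other virgin females. Pdia6 was at 91.6 CPM in virgin female 2, against 136 to 161 CPM in the other virgin females.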

How the results depend on the processing

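Each comparison was refitted under 27 alternatives. In lactating against virgin females the count of called genes, 9 of 15572, was 15 with a filter at mean 1 CPM, 1 with the replicate block, 62 with the cell cycle score as a covariate, 1 with the compared groups alone, 1 without virgin male 6 and virgin female 2, 69 with DESeq2 and 2 to 16 with each library left out. In virgin males against virgin females it was 13, and 20 with no filter, 30 with DESeq2 and 10 to 18 with each library left out. In lactating females against virgin males it was 119, and 61 without virgin male 6 and virgin female 2, 410 with DESeq2 and 62 to 311 with each library left out. Of the 33 genes, the 1 call in that comparison was 0 with the compared groups alone and without those 2 libraries, and 0 to 1 with each library left out. With the score as a covariate Ddit3 was at -0.04 and Trib3 at -0.02 in that comparison, against 0.27 and 0.36 without it. On the cell cycle slope, 5 higher and 11 lower calls became 0 and 6 with the replicate block, and 3 to 6 and 9 to 11 with each library left out. The Chac1 slope was -0.04 without lactating library 3 and 0.94 without lactating library 2. Whether the replicate numbers pair the libraries was not settled. Deviations from the group means correlated at -0.219 to 0.477 between libraries with the same number. Libraries with different numbers were not compared in this way, so these values cannot decide it. Among the 33 genes the block ended 10 slope calls (Asns, Ppp1r15a, P4hb, Pdia4, Pdia6, Derl1, Derl2, Derl3, Sel1l and Ern1, adjusted p = 0.0642 to 0.249). Of the 99 fold changes of the 33 genes, 46 lay within 1 SE of 0, and 33 of these changed sign in at least 1 alternative, so that counts above or below 0 include values with no settled sign. Of the other 53, 2 changed sign, Ddit3 and Trib3 as above. The causes of these changes were not tested. Depth limits Derl3, at 0 to 34 counts per library, and Chac1, at 16 to 267.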

Other observations

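Pdia5, a disulfide isomerase outside the 33 genes, had a log2 fold change of 0.34 in lactating females over virgin males (edgeR adjusted p = 0.233), and of 0.47 with the cell cycle score as a covariate (edgeR adjusted p = 0.0167).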
